A study of Mus musculus with 6 samples.

Results

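A set of 9 genes, listed together as factors tied to the age of retinal progenitors, was followed in retinas of mice aged 6 days (P6). Whether each member has such a role was not tested. The members were the nuclear factor I (NFI) genes Nfia, Nfib, Nfic and Nfix, the Ikaros family genes Ikzf1 and Ikzf4, the zinc finger gene Casz1, the forkhead gene Foxn3 and the RNA-binding protein gene Lin28b. They were taken by gene name, and all 9 were found among the 21995 rows of the expression table. RNA-seq had been done on 3 control and 3 Lhx4 null retinal samples, all at P6, from mice whose strain background mixes C57BL/6J with 129S6, and each library came from 1 mouse. In null mice 1 allele of Lhx4 held a tdTomato knock-in and the other was flanked by loxP, for deletion by Six3-Cre, which is driven in the developing retina. The genotype of the RNA-seq controls is named only as control, and the pigment epithelium had been removed from all retinas. Bipolar cells express Lhx4, a LIM homeobox gene, and the genotype comparison asked which genes differ in its absence. Both groups carry the replicate numbers 1 to 3 in their labels, so the members were compared by genotype and by number.

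Retinal progenitors make the cell types in a fixed order, with ganglion cells, cones and horizontal cells early and rods, bipolar cells and Müller glia late. In the mouse, NFI factors accumulate in late progenitors, where they favour exit from the cell cycle and the making of bipolar cells and Müller glia. Ikzf1 marks early progenitors, Ikzf4 has been tied to cone and Müller glia production, and Casz1 favours rods over Müller glia and early-born cells. Lin28b keeps progenitors in an early state by blocking the processing of the let-7 microRNAs, which in turn repress Lin28b. At P6 few progenitors still divide, mostly towards the edge of the retina, and most cells are young neurons and glia.

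The sequence of let-7 and the places in the Lin28b message that pair with it are shown because they are the base of the Lin28b and let-7 pair among the members. RefSeq (GRCm38.p6) lists 9 mature mouse microRNAs of the family, miR-98 included, and all 9 share bases 2 to 8, the seed, which is in capitals in the first line. The other lines are the 4 stretches of 27 bases in the longest annotated 3′ UTR of Lin28b, 4445 bases long, that hold the complement of the seed, CTACCTC, here in capitals. They start 12 bases before the match.
mmu-let-7a-5p: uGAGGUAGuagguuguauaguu
Lin28b UTR position 36: cgggcgggaagtCTACCTCatgcaagc
Lin28b UTR position 2410: acttgttagtaaCTACCTCtgagtttg
Lin28b UTR position 2582: tacagcacatggCTACCTCccagctac
Lin28b UTR position 3998: tgatggcaccgaCTACCTCttcaatca
Positions give the first base of the match, counted from 1 at the start of the UTR, and only the strand of the message was searched. Nfia held 1 match and the other 7 members none. Of 21022 genes with an annotated 3′ UTR, 9.0% held at least 1 match. Within 20% of the length of the Lin28b UTR there were 1271 genes, Lin28b itself included. Of these 24.2% held a match and 3 genes (0.24%), Lin28b among them, held at least 4. These matches are letters in the annotation, and let-7 itself was not measured in these data.

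The NFI genes are close relatives, so the longest run of bases that each pair shares in its coding sequence is also shown, to let a reader judge whether reads could be split between them. The 3 longest runs follow, all in lower case.
Nfic and Nfix: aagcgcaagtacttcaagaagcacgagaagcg
Nfib and Nfix: atcaagcagaagtgggcatcc
Nfia and Nfib: acagtcctggtacctggg
The Nfic and Nfix run of 32 bases starts at coding base 112 in Nfic and 109 in Nfix. The Nfib and Nfix run has 21 bases, the Nfia and Nfib run 18, and each of the other NFI pairs shares 17. For the Ikaros members Ikzf1 and Ikzf4 the longest run was 24 bases. No window of 50 bases was shared by any NFI pair or by Ikzf1 and Ikzf4 in the GENCODE M21 transcripts.

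The members lie on 5 autosomes and are all protein coding, with positions on GRCm38 from GENCODE M21. Nfia is at chr4:97772734-98118874, Nfib at chr4:82290173-82705750 and Casz1 at chr4:148804429-148954889. Nfic is at chr10:81396186-81455635, Ikzf4 at chr10:128630843-128645991 and Lin28b at chr10:45376620-45486395. Nfix is at chr8:84699876-84800344, Ikzf1 at chr11:11685003-11772926 and Foxn3 at chr12:99190078-99563582. Exon bases shared with another gene were at most 1.92% of a member, the share of Nfix, of which 137 bases overlap G430095P16Rik on the opposite strand. Whether the authors' counting used strand is not given in the sources used here, so reads from such stretches cannot be told apart.

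Values are FPKM, a fragment count divided by gene length and by the size of the library, which sets genes and libraries on a common scale but does not keep the reads behind a value. The depth behind each value is therefore unknown. Summed FPKM ran from 386567 to 429668 over the 6 libraries, and 5348 to 5818 rows were listed at 0. Lhx4 itself had 17.98, 18.1 and 19.3 FPKM in the 3 controls, and the libraries labelled null were higher, at 28.2, 28.3 and 25.8. One value for the whole gene holds the deleted and the remaining exons of Lhx4 together, so the targeted gene does not check these labels, and the group is called null-labelled from here on. The bipolar genes Bhlhe23 and Grik1 were lower in that group without overlap, each with a limma BH-adjusted p of 0.661. Bhlhe23 was at 0.986 to 11.5 FPKM in controls against 0.196 to 0.626, and Grik1 at 6.14 to 19.9 against 3.19 to 5.06. The paper reports both genes as reduced in null retinas at P6, by its own RNA-seq test with Cufflinks and by in situ hybridization. Since limma on these values called neither, a gene it did not call may still differ between genotypes. Groups did not overlap for 13.4% of all 13175 tested genes. Of 13 tested bipolar genes 6 had higher and 7 lower means in that group, and none passed an adjusted p of 0.05. Markers of rods, the most abundant cells of the retina, were present in every library. The libraries numbered 3 stood apart from the other 4, as given with the number comparison.

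Casz1 and the NFI genes Nfix and Nfic were the most abundant members, and Lin28b and Ikzf1 were close to the floor of the table. In FPKM over all 6 libraries, Casz1 ran from 32.8 to 45.1, Nfix from 27.0 to 52.7 and Nfic from 24.8 to 29.9. Nfib ran from 10.8 to 15.7, Foxn3 from 5.38 to 13.6, Ikzf4 from 3.43 to 5.46 and Nfia from 3.65 to 4.42. Lin28b ran from 0.375 to 0.659 and Ikzf1 from 0.0854 to 0.219. In this order by mean level, neighbours had ranges that did not overlap only at 3 steps, from Nfic to Nfib, from Nfia to Lin28b and from Lin28b to Ikzf1. At the other steps the ranges overlapped, from Casz1 to Nfix, Nfix to Nfic, Nfib to Foxn3, Foxn3 to Ikzf4 and Ikzf4 to Nfia. Casz1 and Nfic, which are not neighbours, did not overlap, and Foxn3 stood above Ikzf4 within each of the 6 libraries. By mean level Casz1 stood at percentile 90.6 of all rows, Nfix at 90.3, Nfia at 55.3, Lin28b at 40.0 and Ikzf1 at 32.9.

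**Figure D1:**
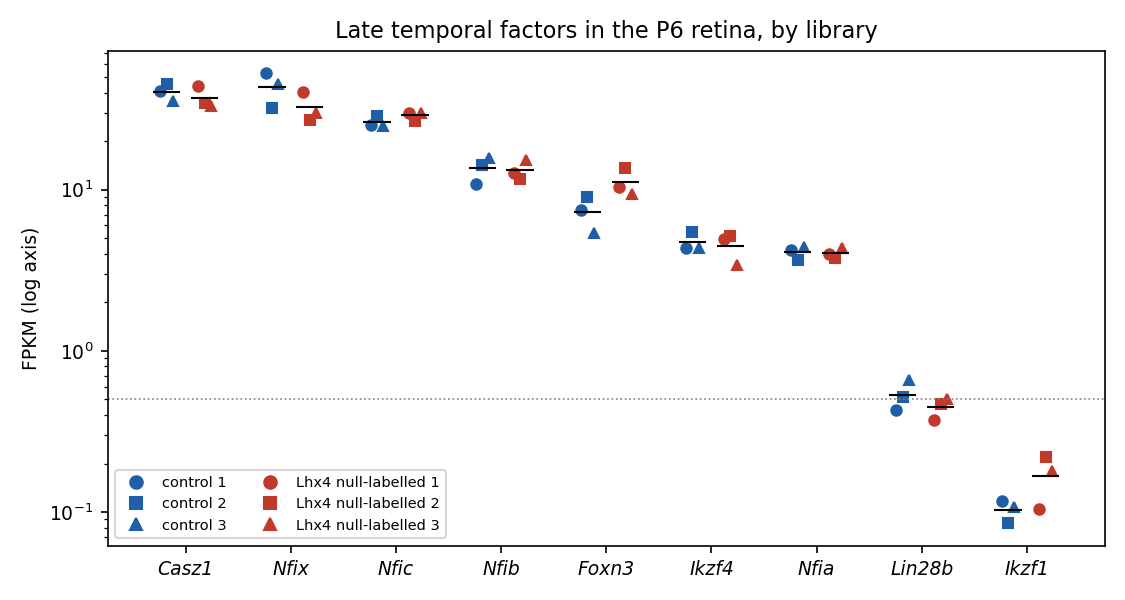
FPKM of the 9 members (log axis), with 1 point per library, blue for control and red for null-labelled, the marker giving the replicate number, black bars the group means and the dotted line the mean of 0.5 FPKM needed for testing. Foxn3 is the only member whose groups part, with controls from 5.38 to 9.01 and null-labelled libraries from 9.41 to 13.6, and Lin28b and Ikzf1 have means under the line.

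Differences between genotypes were tested with limma on log2(FPKM + 0.5), for the 13175 rows whose mean reached 0.5 FPKM, with p-values adjusted by Benjamini-Hochberg (BH) over all of them. Every difference is null-labelled minus control on that log2 scale, which understates the change of low genes. Of the 9 members 7 were tested, while Ikzf1 and Lin28b fell under the minimum. No tested member passed an adjusted p of 0.05, where 2 of all tested genes (0.0152%) did, Cacna1i and Slc18b1. At an unadjusted p under 0.05 there was 1 member, Foxn3, against 6.81% of all tested genes. Over the 7 tested members the median difference was -0.04, with 2 higher and 5 lower in the null-labelled libraries, and over all tested genes it was 0.0033. In whole retina, fewer cells of a type and less RNA per cell cannot be told apart.

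Foxn3, which encodes a forkhead repressor, had the largest difference of the tested members. Its FPKM was 7.52, 9.01 and 5.38 in control libraries 1 to 3 and 10.3, 13.6 and 9.41 in null-labelled libraries 1 to 3. All 3 null-labelled values lay above the highest control, which was true of no other member, and groups did not overlap for 13.4% of all tested genes. The means were 7.30 ± 1.82 and 11.1 ± 2.19 FPKM (SD, n = 3 each), a ratio of 1.52. The log2 difference was 0.58 (SE 0.205, 95% interval 0.11 to 1.06), with an unadjusted p of 0.0230 and a BH-adjusted p of 0.689 in limma, rank 432 of 13175. Within each number Foxn3 was higher in the null-labelled library, by 0.44, 0.57 and 0.75 for numbers 1 to 3. With the replicate number as a block, a pairing that the labels do not state, the limma interval was 0.33 to 0.84 and the adjusted p 0.149. That fit placed 2 members, Foxn3 and Nfix, under an unadjusted p of 0.05, against 12.2% of all tested genes, and called no member, against 12 of all tested genes (0.0911%).

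Some markers of other cells also had higher levels in null-labelled libraries, as Foxn3 did. The summed FPKM of 14 microglia and leukocyte markers was 38.8 to 44.2 in controls and 44.9 to 64.0 in null-labelled libraries, with 11 of 12 tested members higher and none called. The sum of 5 astrocyte markers was 14.4 to 17.6 in controls and 18.4 to 21.6 in null-labelled libraries, with 5 of 5 higher and none called. Of 5 tested horizontal cell markers 5 were higher and none called, with sums of 24.5 to 34.2 and 33.9 to 46.1 FPKM that overlapped. At an unadjusted limma p under 0.05 there were 2, Onecut1 with a difference of 0.70 and Prox1 with 0.48, against 6.81% of all tested genes. Of 9 tested endothelial and pericyte markers 8 were higher and none called, with sums of 57.1 to 75.2 and 70.4 to 90.6 FPKM. No marker of these 4 lists was at 0 in all libraries. Other lists also leaned higher, with 9 of 11 ganglion, 8 of 10 cone and 12 of 12 Müller glia genes, while 13 of 13 rod genes were lower. Between number 3 and numbers 1 and 2, list medians (log2 scale) were 0.26 for microglia and leukocytes and 0.18 for astrocytes. They were -0.47 for horizontal cells and -0.58 for endothelial cells and pericytes, and Foxn3 gave -0.44. The part of these markers in the Foxn3 difference was not tested.

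Nfix, the most abundant NFI gene by mean, had a lower mean in null-labelled libraries and was lower in the null-labelled library of every number. Its FPKM was 52.7, 31.9 and 45.1 in controls 1 to 3 and 40.6, 27.0 and 29.8 in null-labelled libraries 1 to 3. The groups overlapped, since control 2 lay below null-labelled 1. The means were 43.2 ± 10.5 and 32.5 ± 7.16 FPKM (SD, n = 3 each), a ratio of 0.751, and the log2 difference was -0.40 (SE 0.213, 95% interval -0.90 to 0.10, limma BH-adjusted p = 0.749). Within numbers 1 to 3 the differences were -0.37, -0.23 and -0.59. Rod markers had lower means in the null-labelled libraries for 13 of 13 genes, by a median of -0.19 with none called by limma, and their sums overlapped (2912 to 5616 and 3059 to 4348 FPKM). Between number 3 and numbers 1 and 2, the median of the rod list (log2 scale) was -0.97 and Nfix gave -0.01. The part of the rod markers in the Nfix values was not tested. The block narrowed the interval to -0.62 to -0.18, with an unadjusted p of 0.00335 and a BH-adjusted p of 0.256 in limma. That fit rests on pairing by number, which the labels do not state. Deviations of control 2 from its group mean correlated at 0.269 with those of null-labelled 1 and at 0.260 with those of null-labelled 2. Set against control 2, null-labelled 1 was higher for Nfix, at 40.6 against 31.9 FPKM.

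The other NFI genes were closer between genotypes than Nfix. Nfia, required for glial differentiation in the mouse brain, was at 4.22, 3.65 and 4.42 FPKM in control libraries 1 to 3 and at 3.97, 3.77 and 4.35 in null-labelled libraries. Nfib, which acts with Nfia in late progenitors, was at 10.8, 14.3 and 15.7 FPKM in controls and at 12.6, 11.6 and 15.2 in null-labelled libraries. Nfic, known in the mouse for its role in tooth root formation, was at 25.1, 28.4 and 24.8 FPKM in controls and at 29.9, 26.7 and 29.9 in null-labelled libraries. For all 3 genes the groups overlapped. The limma differences were -0.02 for Nfia (95% interval -0.31 to 0.27, BH-adjusted p = 0.989), -0.04 for Nfib (-0.41 to 0.34, 0.981) and 0.14 for Nfic (-0.08 to 0.36, 0.787).

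Within a library, the 4 NFI genes kept their order of Nfix, Nfic, Nfib and Nfia in 5 of 6 libraries. In null-labelled 3, Nfic at 29.9 FPKM was just above Nfix at 29.8. Nfix held 37.6% to 56.8% of the summed NFI FPKM, Nfic 27.1% to 38.7%, Nfib 11.6% to 19.2% and Nfia 4.55% to 5.49%. The summed NFI FPKM was 87.0 ± 7.71 in controls and 78.5 ± 8.98 in null-labelled libraries (SD, n = 3 each), and the groups overlapped, from 69.1 to 92.8 over all libraries.

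**Figure D2:**
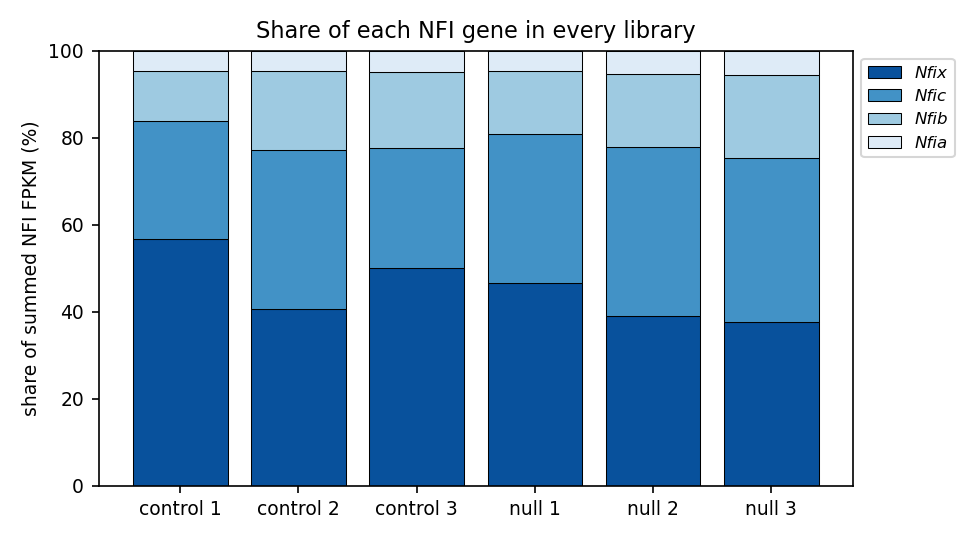
Stacked bars of the share (%) that Nfix, Nfic, Nfib and Nfia hold of the summed NFI FPKM in each of the 6 libraries. Nfix holds the largest share in 5 libraries, up to 56.8% in control 1, and Nfia the smallest in every library, between 4.55% and 5.49%.

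Casz1 and Ikzf4, both zinc finger genes, overlapped between genotypes. Casz1 was at 40.9, 45.1 and 35.7 FPKM in control libraries 1 to 3 and at 44.2, 34.3 and 32.8 in null-labelled libraries, a limma difference of -0.13 (95% interval -0.46 to 0.19, BH-adjusted p = 0.857). Ikzf4, also called Eos, was at 4.37, 5.46 and 4.31 FPKM in controls and at 4.91, 5.13 and 3.43 in null-labelled libraries, a difference of -0.08 (-0.48 to 0.33, BH-adjusted p = 0.952). For both genes null-labelled 3 was the lowest of the 6 libraries.

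**Figure D3:**
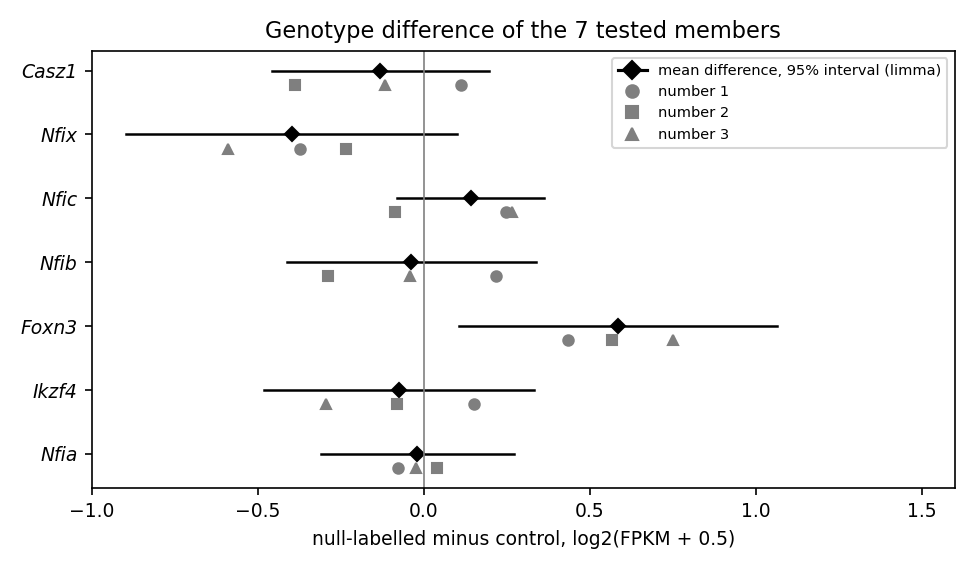
Genotype difference (null-labelled minus control, log2(FPKM + 0.5)) of the 7 tested members, with black diamonds for the limma estimate, black lines for its 95% interval and grey markers for the difference within each replicate number. The Foxn3 interval, 0.11 to 1.06, is the only one that does not cross 0, and for Foxn3 and Nfix all 3 grey markers lie on one side of 0.

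The members of the early state were at low levels in both groups. Ikzf1, the founder of the Ikaros family and also a gene of leukocytes, was at 0.117, 0.0854 and 0.108 FPKM in controls and at 0.104, 0.219 and 0.180 in null-labelled libraries. The groups overlapped through null-labelled 1, and these levels stood beside the microglia and leukocyte sums given above, whose part in them was not tested. The summed FPKM of 10 lymphocyte markers was 4.19 to 4.86 in controls and 4.67 to 5.78 in null-labelled libraries. Lin28b was at 0.429, 0.515 and 0.659 FPKM in controls and at 0.375, 0.471 and 0.506 in null-labelled libraries. It was lower in the null-labelled library of every number, but the groups overlapped and the labels do not state a pairing by number. Its mean of 0.493 FPKM lay just under the minimum of 0.5, and with no minimum the limma difference was -0.12 (95% interval -0.40 to 0.16, BH-adjusted p = 0.866). Without the minimum Ikzf1 gave 0.14 (-0.05 to 0.33, BH-adjusted p = 0.786).

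The libraries numbered 3 were compared with the others because cell cycle genes were high in them. All 12 cell cycle genes listed were higher in control 3 and null-labelled 3 than in the other 4, which is given as a description since it prompted the comparison. The median difference (number 3 minus numbers 1 and 2, log2 scale) was 1.29. Their summed FPKM was 166 to 212 in the libraries numbered 1 and 2 and 403 to 449 in those numbered 3. Of 14 progenitor genes 13 had higher means at number 3, with sums of 628 to 666 and 802 to 914 FPKM, and all 13 rod genes had lower means, with sums of 4237 to 5616 and 2912 to 3059. Of 13 bipolar genes 11 had lower means, by a median of -0.99 over the list. Some markers of other tissue were also higher at number 3. Sums were 7.30 to 17.3 and 23.0 to 27.4 FPKM for 7 pigment epithelium genes, although that tissue had been dissected away. Ttr alone held 14.9 and 18.5 FPKM in control 3 and null-labelled 3, while Rpe65 stayed at 0 to 0.107 in all libraries. For 6 erythroid genes the sums were 58.9 to 78.0 and 106 to 117 FPKM. Sums of 8 lens genes overlapped, at 1.13 to 23.2 and 6.57 to 26.8 FPKM. By genotype they were 1.68 to 6.57 FPKM in controls and 1.13 to 26.8 in null-labelled libraries. The lens gene Cryaa was at 7.98 and 10.4 FPKM in null-labelled 2 and 3. For example Top2a, a topoisomerase of dividing cells, was at 9.17 to 13.4 FPKM in the libraries numbered 1 and 2 and at 37.1 and 34.1 in those numbered 3. Since number 3 was known to stand apart, its differences are given as descriptions. A p comes from an F-test over the 3 numbers in limma with genotype in the model, and it was run with that knowledge in view. Y-linked Ddx3y was at 0.0284 and 0.0142 FPKM in the libraries numbered 2 and at 19.2 to 26.6 in the other 4, so number 2 and the near absence of Y-linked transcripts cannot be told apart, while numbers 1 and 3 both held them.

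The members had differences of both signs between numbers. By the F-test 1 member, Nfix, was called, against 4.97% of all tested genes, and 2 members, Nfix and Foxn3, had an unadjusted p under 0.05, against 20.2%. Both libraries numbered 3 lay above the other 4 for Nfia and Nfib and below them for Ikzf4, which makes 3 of 7 tested members (2 of 7 with the same 75th percentile or with quantile normalization), while 37.2% of all tested genes lay outside on one side or the other. The median difference of number 3 was -0.02 over the 7 tested members and -0.0020 over all tested genes. In absolute size the medians were 0.253 and 0.173. When libraries were scaled to the same summed FPKM, the median of all tested genes for number 3 moved to -0.10, and the signs for Nfia, Nfib, Ikzf4, Casz1 and Foxn3 stayed as given below.

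Nfix differed by number, with its lowest values at number 2. Its mean FPKM was 46.6 for number 1, 29.4 for number 2 and 37.4 for number 3, with control 1 and null-labelled 1 the highest and control 2 and null-labelled 2 the lowest of their groups. The limma F-test gave a BH-adjusted p of 0.0443, and the difference of number 3 was -0.01 (SE 0.102). The call was lost in 11 of 15 alternatives, among them each of the 6 fits that left out 1 library, with adjusted p from 0.0303 to 0.279. The library with the lowest Nfix of each group was also the one with Ddx3y near 0, whose part was not tested.

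Nfib and Nfia had their highest values in the libraries numbered 3, where progenitor genes were also high. For Nfib the values were 15.7 and 15.2 FPKM in control 3 and null-labelled 3, against 10.8 to 14.3 in the other 4, a difference of 0.32 (SE 0.124). For Nfia they were 4.42 and 4.35 FPKM, against 3.65 to 4.22, a difference of 0.15 (SE 0.124). The differences were near one another in controls and null-labelled libraries taken alone, 0.32 and 0.32 for Nfib and 0.15 and 0.15 for Nfia. The limma F-test called neither, with BH-adjusted p of 0.301 and 0.658. Nfic was between 24.8 and 29.9 FPKM whatever the number, with a difference of -0.02 (SE 0.107). The cell cycle, rod, pigment epithelium and erythroid sums that move with number stand beside these values, and their part was not tested.

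Foxn3, Ikzf4 and Casz1 had lower means in the libraries numbered 3. Foxn3 was lowest within each genotype in the library numbered 3, at 5.38 and 9.41 FPKM, a difference of -0.44 (SE 0.115), and -0.57 in controls and -0.32 in null-labelled libraries taken alone. Its F-test gave an unadjusted p of 0.00671 and a limma BH-adjusted p of 0.0856. Ikzf4 stood at 4.31 and 3.43 FPKM in the libraries numbered 3 and at 4.37 to 5.46 in the others, a difference of -0.33 (SE 0.138). The gap between control 3 and control 1 was small, and the difference was -0.16 in controls and -0.49 in null-labelled libraries taken alone. Casz1 stood at 35.7 and 32.8 FPKM in the libraries numbered 3 and at 34.3 to 45.1 in the others, a difference of -0.25 (SE 0.115), with an overlap through null-labelled 2. Neither Ikzf4 nor Casz1 was called by number, with limma BH-adjusted p of 0.327 and 0.385.

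Lin28b and Ikzf1 were not in the F-test. Lin28b was highest within each genotype in the library numbered 3, at 0.659 and 0.506 FPKM, but control 2 at 0.515 lay above null-labelled 3. Lin28a, the paralog of Lin28b, was at 0.790, 0.858 and 1.28 FPKM in controls and at 0.842, 1.10 and 1.29 in null-labelled libraries. Trim71, a partner of this pathway that let-7 represses, was at 0.206 to 0.503 FPKM and untested. All Lin28a values lay above the highest Lin28b value.

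**Figure D4:**
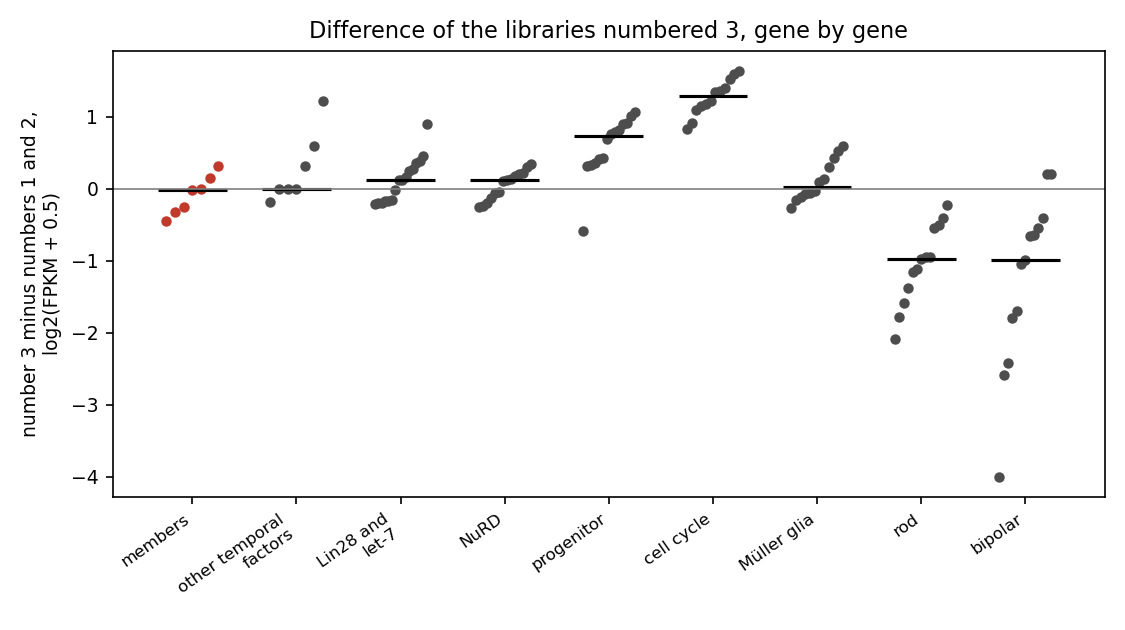
Difference of the libraries numbered 3 from those numbered 1 and 2 (log2(FPKM + 0.5)), with 1 point per tested gene, red for the members and grey for 8 other gene lists, and a black bar at the median of each list. The members lie between -0.44 and 0.32 with a median of -0.02, while the cell cycle genes have a median of 1.29 and the rod genes a median of -0.97.

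The wider Lin28 and let-7 pathway, listed as 17 genes of which 16 were tested, had a median genotype difference of -0.05. None passed the adjusted p in limma, and 2 had an unadjusted p under 0.05, against 6.81% of all tested genes. These were Igf2bp3 with a difference of -0.33 and Tarbp2, a partner of Dicer, with -0.24. Igf2bp3, an RNA-binding protein of the oncofetal class, was at 5.60, 5.52 and 6.38 FPKM in controls and at 4.19, 4.75 and 4.72 in null-labelled libraries, with no overlap. Against 4.97% of all tested genes, 1 gene of this list was called by number. That was Igf2bp1, which let-7 is known to repress, at 1.19, 1.23 and 2.72 FPKM in controls and at 1.08, 1.16 and 2.49 in null-labelled libraries. Its difference of number 3 was 0.90, with a limma BH-adjusted p of 0.0334 by the F-test. Hmga1 was at 71.9 to 90.6 FPKM in the 4 libraries numbered 1 and 2 and at 106 and 109 in those numbered 3, and was not called (limma BH-adjusted p = 0.0818). Of the genes of let-7 processing and decay, none was called by number, with Dicer1 between 11.4 and 14.1 FPKM, Drosha between 19.4 and 23.1 and Dis3l2 between 11.1 and 14.8.

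Among 7 other factors of temporal identity, none was called by genotype in limma or reached an unadjusted p under 0.05. Against 4.97% of all tested genes, 1 of the 7 was called by number. That was Foxn4, a forkhead gene of early and mid-stage progenitors, at 1.48, 2.14 and 5.95 FPKM in control libraries 1 to 3 and at 1.55, 1.82 and 3.72 in null-labelled libraries. Its difference of number 3 was 1.23, with a BH-adjusted p of 0.0170, while that of Foxn3 was -0.44. Nr2e1, or Tlx, a receptor that keeps progenitors dividing, was at 9.33 to 11.6 FPKM in the libraries numbered 1 and 2 and at 16.6 and 15.9 in those numbered 3 (BH-adjusted p = 0.0514). Pou2f1, a POU factor of early progenitors, was at 6.59 to 8.05 FPKM in controls and at 8.54 to 10.3 in null-labelled libraries, with a genotype difference of 0.28 and a BH-adjusted p of 0.725. Foxp1 was between 7.21 and 9.91 FPKM, Pou2f2 between 2.47 and 3.13, Nr2f1 between 13.3 and 21.7 and Nr2f2 between 10.2 and 11.8.

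None of the remaining relatives of the members was called by genotype or had an unadjusted p under 0.05. Ikzf5 was the most abundant Ikaros gene, at 13.5 to 14.7 FPKM in controls and 15.0 to 17.4 in null-labelled libraries, a difference of 0.16 that limma did not call (BH-adjusted p = 0.764). Ikzf2, or Helios, was at 2.13 to 4.39 FPKM, and Ikzf3, or Aiolos, at 0.0106 to 0.0743. Foxn2 was at 3.35 to 5.19 FPKM, and Foxn1, a gene of thymus and hair, was listed at 0 in every library. The subunits of NuRD, a chromatin remodeller that Casz1 works with in the mouse, were tested for 14 genes, and none was called by genotype or number in limma. At an unadjusted limma p under 0.05 there were 0 by genotype, against 6.81% of all tested genes. By number there were 2, Mbd3 and Rbbp4, against 20.2%. Chd4, its main ATPase in many tissues, was at 73.3 to 93.3 FPKM.

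Müller glia share several of the members, so their markers were set beside them. Of 12 tested Müller glia genes, 12 were higher in null-labelled libraries, by a median of 0.13, and none was called by limma or had an unadjusted p under 0.05. Their summed FPKM overlapped, at 1057 to 1220 in controls and 1179 to 1272 in null-labelled libraries. By number 1 was called, Sox9, against 4.97% of all tested genes. Sox9 was at 8.10 to 10.3 FPKM in the libraries numbered 1 and 2 and at 13.4 and 16.0 in those numbered 3, a difference of 0.59 (limma BH-adjusted p = 0.0396). The median of the list by number was 0.03, against -0.02 for the tested members and -0.0020 for all tested genes.

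For the most abundant NFI gene, Ikaros member and other member, the rows with the closest pattern over the 6 libraries were sought by Pearson r of log2 values, as a description over 6 points. For Nfix these were Slc11a1 (r = 0.986), Tmem150b (0.968) and Rpusd3 (0.960). For Ikzf4 they were Wbscr22 (0.979), Pik3c3 (0.974) and Ago3 (0.967), and for Casz1 Plcd3 (0.992), Caskin2 (0.991) and Ankrd42 (0.970). Among the tested members themselves the pairs ranged from -0.86 for Nfia and Ikzf4 to 0.64 for Ikzf4 and Casz1.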

How the data were processed

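The authors mapped reads with TopHat2 and estimated FPKM with Cufflinks on GRCm38, per the submitters' notes, and deposited FPKM per gene with 1 column per library. The sources used here do not give versions, annotation or strand use. Cufflinks shares fragments among overlapping transcripts, so antisense partners and near-identical copies are uncertain. Of low values (0.001 to 0.2 FPKM, tolerance 0.003 on the natural log scale), at most 7.83% shared a common ratio between libraries, so whole reads could not be recovered and no count test was run. The precision rests on the spread between 3 mice per group.

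Values were analysed as log2(FPKM + 0.5) in R 4.3.3 by limma 3.58.1 with a mean-variance trend. Genotype was the one term, and rows had a mean of 0.5 FPKM or more. The test was two-sided. The steps were also run on simulated data, whose noise left out the differences between numbers. That run therefore does not give the power of the genotype fit. Number was tested by a moderated F-test beside genotype. A replicate block was fitted by the numbers in the labels, as an alternative. Deviations from the group means correlated between same-numbered libraries at 0.394, 0.260 and 0.675 for numbers 1 to 3. With number 3 apart in both groups, the deviations of numbers 1 and 2 lean the same way. These values therefore do not show that number 1 pairs with 1 or 2 with 2. Control 1 with null-labelled 2 gave 0.377 and control 2 with null-labelled 1 gave 0.269, so numbers 1 and 2 were not separated from each other. Alternatives were other pseudocounts, filters, scalings and weights, no trend, and each library left out. The members and lists were chosen with earlier results of these data known, and genes outside the members were named by smallest p within a list or by close pattern. Lhx4, Cacna1i, Slc18b1, Ddx3y, Lin28a, Trim71, Dicer1, Drosha, Dis3l2 and Chd4 were named outside that rule, after their values were seen. Of the 21995 rows, 168 share 76 repeated names, and each member name stands once.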

Additional observations from a re-analysis of the deposited data

How the results depend on the processing

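No member was called by genotype in any of 20 alternatives, and the smallest BH-adjusted p of a member in limma was 0.137. Nfic, Nfix, Casz1 and Foxn3 kept their sign in all 20. The Foxn3 difference ran from 0.40 to 0.74, with adjusted p from 0.147 to 1.00, and that of Nfix from -0.60 to -0.22. Nfia changed sign with the same summed FPKM (0.017) and with array weights (0.0020), Nfib with the same summed FPKM (0.0027) and Ikzf4 without both libraries numbered 3 (0.034). With 1 library left out, Nfia ran from -0.092 to 0.031, Nfib from -0.187 to 0.070 and Ikzf4 from -0.172 to 0.088.

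The replicate block, with genotype and number, raised the genes called by genotype from 2 to 12 and changed no call of a member. Without both libraries numbered 3 there were 5, and with 1 library left out 0 to 3, with 1 without control 2 and 0 without null-labelled 2. In blocked fits without 1 pair, added after seeing the data, there were 33 without pair 1 and 0 without pair 3, and Nfia gave 0.0094 without pair 1, Nfib 0.088 without pair 2 and Ikzf4 0.034 without pair 3.

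The genes called by number fell from 655 to 110 with no filter and to 327 with no trend. With 1 library left out they numbered 13 to 652, with 13 without control 3 and 49 without null-labelled 3. The members called by number fell from 1 to 0 with no filter, the same 75th percentile, the same summed FPKM, quantile normalization, no trend, and each library left out (0 to 0). The cause of these changes was not tested. The depth behind each value is unknown, so the counting error of Lin28b and Ikzf1, near the floor, could not be estimated.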
